A study of Mus musculus with 18 samples.

Results

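A530040E14Rik, E330021D16Rik, AU041480 and Rptoros are 4 poorly known mouse genes, out of 30172 gene symbols measured, that were picked from the table because their ovarian levels differed widely with maternal diet at postnatal day (Pd) 3 or Pd21. The measured values that chose them were those of Pd3 and Pd21, so the diet differences on these days are described with no test, and Pd7 is the day on which they were tested. Whole ovaries of wild-type C57BL/6J females at Pd3, Pd7 and Pd21 were compared between offspring of dams on normal chow (F1-Control) and offspring of dams on chow with 3% methionine, which raises homocysteine in the dam (F1-HHcy). Per the labels, the dams ate the diet from 4 weeks before mating and through gestation and lactation, all sires ate normal chow, and the offspring themselves were not treated. There were 3 libraries in each of the 6 groups of diet and day, and the sources do not state which libraries share a dam or litter, so the p-values measure only the spread between these libraries. Pd3 and Pd7 form batch 1 and Pd21 forms batch 2, so age and batch cannot be told apart between Pd21 and the other days. The 18 libraries held between 33630641 and 39399281 fragments on genes, and values are fragments scaled by transcript length and library total (FPKM).

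Poorly known transcripts are often catalogued by their clone or their place in the genome. A symbol that ends in Rik comes from a RIKEN full-length cDNA clone, and the ending "os" marks a transcript on the strand opposite a named gene, here Rptor, which encodes Raptor, the scaffold protein of the growth-regulating kinase complex mTORC1. A newborn mouse ovary holds oocytes in primordial follicles, some of which are recruited to grow, and a growing oocyte switches on large gene families of its own, among them Nlrp, Pramel and oocyte Fbxw genes. Multiciliated cells, which carry many beating cilia, line the oviduct next to the ovary and follow a program driven by the transcription factor Foxj1.

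In the RefSeq annotation of GRCm38.p6, A530040E14Rik is a long non-coding RNA at chr1:85106093-85114038, E330021D16Rik is a protein-coding gene at chr6:136400312-136419873, AU041480 is a long non-coding RNA at chr17:7832222-7837226 and Rptoros is a long non-coding RNA at chr11:119820811-119834365. The transcript lengths that the deposited values imply were 1876, 3394, 2282 and 1290 bases in the same order. The windows around the start site, 250 bases before it and 50 after it, are shown for the 3 members in the table of RefSeq start windows, which are all but AU041480, because these members moved in 2 different patterns and their start regions can be compared. Capitals mark CANNTG, the E-box bound by many helix-loop-helix factors, and GTTGCC, part of the X-box bound by RFX factors, each searched on both strands. The windows lie at chr1:85105843-85106142 on the plus strand, chr6:136415520-136415819 on the minus strand and chr11:119834316-119834615 on the minus strand, and that of E330021D16Rik belongs to a start inside its RefSeq span.
A530040E14Rik: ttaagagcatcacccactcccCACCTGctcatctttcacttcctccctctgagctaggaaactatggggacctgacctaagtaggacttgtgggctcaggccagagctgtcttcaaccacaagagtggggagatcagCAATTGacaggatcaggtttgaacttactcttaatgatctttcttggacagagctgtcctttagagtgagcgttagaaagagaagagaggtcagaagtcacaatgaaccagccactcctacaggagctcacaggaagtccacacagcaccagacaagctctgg
E330021D16Rik: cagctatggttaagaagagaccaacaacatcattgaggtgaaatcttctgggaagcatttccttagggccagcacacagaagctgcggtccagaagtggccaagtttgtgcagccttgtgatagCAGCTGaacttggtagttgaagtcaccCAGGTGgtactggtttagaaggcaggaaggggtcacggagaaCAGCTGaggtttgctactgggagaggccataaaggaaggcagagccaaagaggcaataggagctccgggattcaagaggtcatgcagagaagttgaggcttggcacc
Rptoros: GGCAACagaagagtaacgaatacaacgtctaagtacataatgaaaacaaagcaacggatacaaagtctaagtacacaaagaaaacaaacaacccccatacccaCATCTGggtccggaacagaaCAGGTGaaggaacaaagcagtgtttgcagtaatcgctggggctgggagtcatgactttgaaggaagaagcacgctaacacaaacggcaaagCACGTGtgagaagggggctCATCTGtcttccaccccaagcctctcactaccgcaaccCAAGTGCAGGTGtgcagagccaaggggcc
The E-box letters occurred 2 times in the window of A530040E14Rik, 3 times in that of E330021D16Rik and 6 times in that of Rptoros, and 72.3% of all 32851 windows in the table held at least 1. The X-box letters occurred once, at the far end of the Rptoros window, and were in 12.5% of all windows. TAATTG, the letters bound by the oocyte factor NOBOX and found in 8.0% of all windows, GTAAACA, bound by forkhead factors and found in 3.65%, and TATAAA, the TATA box, found in 13.6%, were not among the letters of these 3 windows. The windows were 49.7%, 51.3% and 49.3% G or C, against a median of 52.7% over all windows.

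A530040E14Rik, which has no established function, was low in F1-Control ovaries at Pd3 and higher in every library of the other groups. At Pd3 the F1-Control libraries held 1.88, 1.92 and 4.81 FPKM and the F1-HHcy libraries 49.998, 49.0 and 13.9 FPKM. The groups did not overlap, as in 27.9% of all genes at Pd3, and the third F1-HHcy library lay between the F1-Control libraries and the other F1-HHcy libraries. Group means at Pd3 were 2.87 ± 1.68 and 37.6 ± 20.6 FPKM (SD, n = 3), a difference of 3.20 (SE 0.50) on the log2(FPKM + 1) scale, and leaving out the third F1-HHcy library gave 3.79. At Pd7 the F1-Control libraries held 38.0, 48.4 and 42.4 FPKM and the F1-HHcy libraries 39.1, 31.2 and 32.6 FPKM, and the groups overlapped. At Pd21 the F1-Control libraries held 39.8, 37.5 and 36.5 FPKM and the F1-HHcy libraries 37.6, 32.3 and 52.4 FPKM, which also overlapped. In rising order the group means were 2.87 in F1-Control at Pd3, 34.3 in F1-HHcy at Pd7, 37.6 in F1-HHcy at Pd3, 38.0 in F1-Control at Pd21, 40.8 in F1-HHcy at Pd21 and 42.9 FPKM in F1-Control at Pd7, and every pair of neighbours in this order above the lowest overlapped.

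E330021D16Rik, whose protein is uncharacterized, was also low in F1-Control at Pd3. In F1-Control its mean was 12.3 FPKM at Pd7 and 26.4 at Pd21, which is in the other batch, and the libraries of these days overlapped. At Pd3 the F1-Control libraries held 0.209, 0.214 and 0.621 FPKM, from 25, 26 and 74 fragments, and the F1-HHcy libraries held 22.8, 11.6 and 4.71 FPKM. Every F1-HHcy library was above every F1-Control library, and the third F1-HHcy library was again the lowest of its group. The difference at Pd3 was 3.17 (SE 0.46) on the log2(FPKM + 1) scale, and the summed fragments over the group's library totals were 38.0 times as high in F1-HHcy, with an exact 95% interval of 31.9 to 45.8 that covers counting error only. The ratio was 62.4 without the third F1-Control library and 23.7 without the first F1-HHcy library, the highest and the lowest values with 1 library left out. At Pd21 the libraries held 30.003, 31.6 and 17.5 FPKM in F1-Control and 32.0, 29.4 and 42.5 FPKM in F1-HHcy, and the groups overlapped. The group means rose in the order 0.348 in F1-Control at Pd3, 12.3 in F1-Control at Pd7, 13.1 in F1-HHcy at Pd3, 26.4 in F1-Control at Pd21, 29.7 in F1-HHcy at Pd7 and 34.6 FPKM in F1-HHcy at Pd21, and above the lowest each pair of neighbours overlapped.

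**Figure D1:**
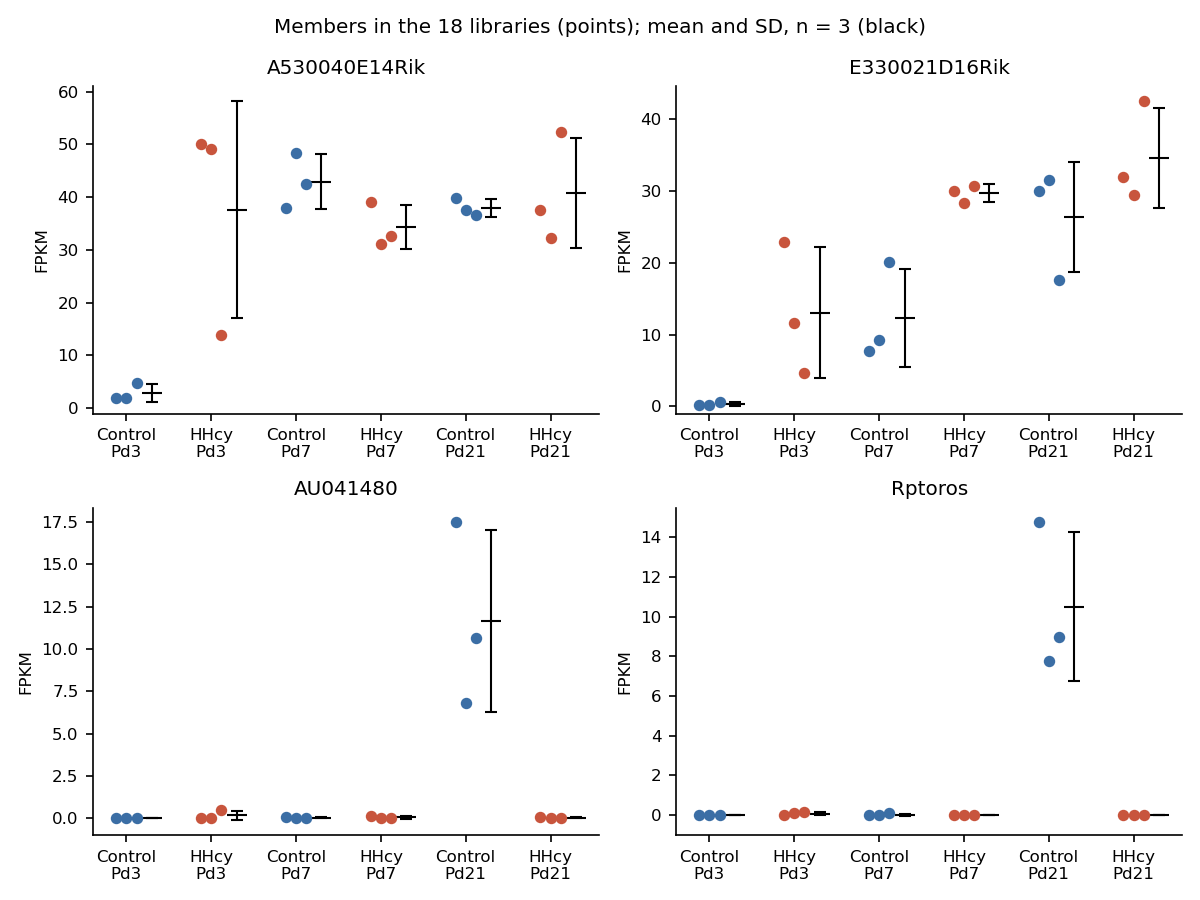
FPKM of the 4 members in each library (points, blue for F1-Control and red for F1-HHcy) by diet and day, with the mean and SD of 3 libraries in black. A530040E14Rik and E330021D16Rik are low in F1-Control at Pd3, at 2.87 and 0.348 FPKM on average, and AU041480 and Rptoros stand above the baseline in F1-Control at Pd21, at 11.7 and 10.5 FPKM.

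Pd7, the day that did not choose the members, separated the pair. E330021D16Rik was higher in F1-HHcy at Pd7, with 30.006, 28.4 and 30.7 FPKM against 7.66, 9.20 and 20.1 FPKM in F1-Control. The groups did not overlap, with means of 29.7 ± 1.22 and 12.3 ± 6.77 FPKM (SD, n = 3) and a difference of 1.32 (SE 0.28) on the log2(FPKM + 1) scale (limma, adjusted p = 0.0180 over all genes of the day). A530040E14Rik differed by -0.31 (SE 0.15) at Pd7 and did not pass the test (limma, adjusted p = 0.183). A gene was called at an unadjusted p under 0.05 with a log2 difference above 0.58 in size, which took in 16.4% of the genes tested at Pd7, with 9.06% higher and 7.35% lower. With the adjusted p in its place the share was 11.1%, with 5.64% higher and 5.48% lower, and 39.0% of the genes had groups that did not overlap. The difference of E330021D16Rik lay above that of 98.7% of the genes tested that day. Per library, E330021D16Rik minus A530040E14Rik at Pd7 was -0.20 ± 0.15 in F1-HHcy and -1.83 ± 0.68 in F1-Control on the log2 scale, without overlap (2-sided exact permutation test, p = 0.1, the smallest that 3 against 3 libraries allow, on a contrast chosen after the values were seen). Without the filter on low values the adjusted p of E330021D16Rik was 0.1101, and with each library left out in turn it ran from 0.000273 to 0.0824.

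In a whole ovary, fewer cells of a type and less RNA per cell cannot be told apart. Marker genes of several cell types differed with the diet on the same days. The 12 germ cell and primordial oocyte markers summed to between 575.0 and 702.5 FPKM in F1-Control and between 182.6 and 602.0 in F1-HHcy at Pd3. Of these markers, 6 were called lower beside 4.74% of all genes, none at an adjusted p under 0.05. Their median difference was -0.91 against -0.03 over all genes. At Pd7 these markers summed to between 244.8 and 458.9 FPKM in F1-Control and between 103.4 and 141.3 in F1-HHcy, with 10 of 12 called lower beside 7.35% of all genes and Taf4b, a subunit of a transcription initiation complex in germ cells, called higher. The highest sum of the F1-HHcy libraries at Pd3, 602.0 FPKM, belonged to the third library, in which A530040E14Rik and E330021D16Rik were lowest. Relative to this sum, A530040E14Rik at Pd7 stood at 35.5%, 30.2% and 23.1% in F1-HHcy and at 9.68%, 10.5% and 17.3% in F1-Control, so the sign of its difference turned on this scale. E330021D16Rik stood at 27.2%, 27.4% and 21.8% of the sum in F1-HHcy and at 1.95%, 2.00% and 8.21% in F1-Control at Pd7, which kept its direction. Markers of other cell types differed too. At Pd3 all 8 erythroid markers were called lower, with a median difference of -3.08. So were 6 of the 7 granulocyte markers tested, with a median of -3.74 and none at an adjusted p under 0.05. Of 10 stroma and smooth muscle markers 6 were called higher, beside 5.0% of all genes, and 2 of the 10 had an adjusted p under 0.05. At Pd7 all 8 theca and steroidogenic cell markers were called higher, beside 9.06% of all genes, with a median of 1.72. Among them was Cyp17a1, an enzyme of androgen synthesis, at 136 ± 62.2 FPKM in F1-HHcy and 3.49 ± 4.80 in F1-Control (limma, adjusted p = 0.00250). Insl3, also among them, was at 3.29 ± 1.94 FPKM in F1-HHcy and 0.203 ± 0.229 in F1-Control. It reached 1 FPKM in F1-HHcy alone, so a rise was the only direction open to it. Counts that hold such markers are descriptions. The 5 erythroid markers tested at Pd7 were called lower. Of the granulosa cell markers, 5 of 10 were called higher and 1 lower at Pd3, and 6 of 12 higher and 1 lower at Pd7. Of all genes, 5.0% were called higher at Pd3 and 9.06% at Pd7. An adjusted p under 0.05 was reached by 2 of the granulosa cell markers at Pd3 and 3 at Pd7. The part that any of these markers had in the members' values was not tested.

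**Figure D2:**
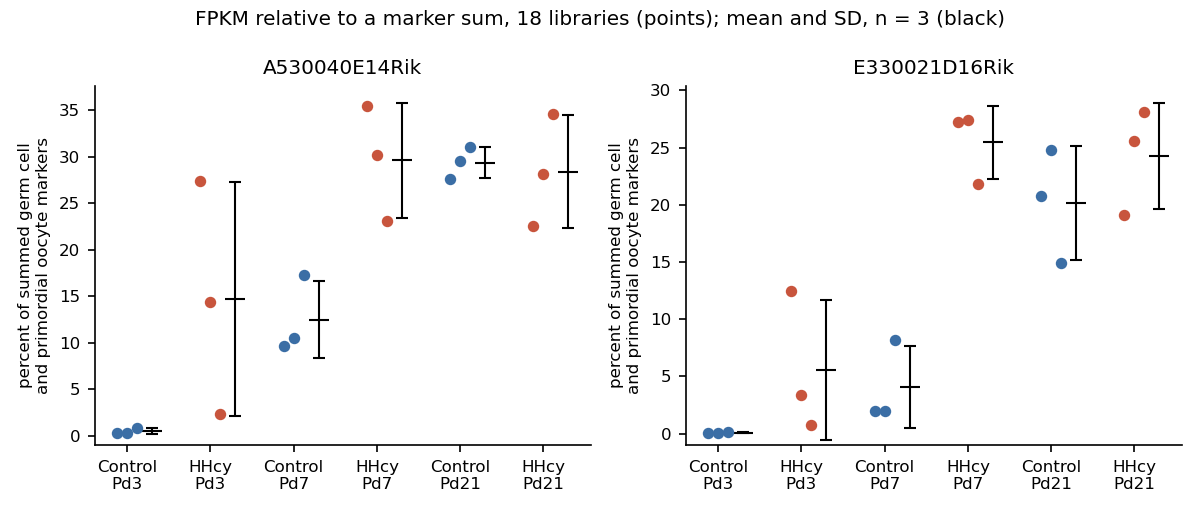
A530040E14Rik and E330021D16Rik as a percentage of the summed FPKM of 12 germ cell and primordial oocyte markers in each library (points, blue for F1-Control and red for F1-HHcy), with the mean and SD of 3 libraries in black. At Pd7 the F1-HHcy libraries reach at least 23.1% and 21.8% and the F1-Control libraries at most 17.3% and 8.21%.

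The 15 growing oocyte markers did not move as 1 group. At Pd3, 10 were called higher beside 5.0% of all genes and 1, the ubiquitin hydrolase gene Uchl1, lower, and at Pd7, 2 were called higher and 7 lower, beside 9.06% and 7.35% of all genes. An adjusted p under 0.05 was reached by 4 of the 15 at Pd3 and 7 at Pd7. The genes called higher at Pd7 were Bmp15, a growth factor of the oocyte, at 65.8 ± 10.8 FPKM in F1-HHcy against 18.5 ± 6.80 in F1-Control (limma, adjusted p = 0.00300), and Oosp1, a secreted oocyte protein, at 180 ± 30.2 against 95.5 ± 10.3 FPKM (limma, adjusted p = 0.0119). Zp2, a zona pellucida protein of the egg coat, was called lower at Pd7, with 304 ± 54.4 against 692 ± 186 FPKM (limma, adjusted p = 0.0142). Over the 18 libraries the Pearson correlation r of log2(FPKM + 1) with E330021D16Rik was 0.973 for Bmp15, 0.971 for Oosp1 and 0.22 for Zp2. With A530040E14Rik it was 0.833, 0.933 and 0.571.

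The genes whose pattern was most like A530040E14Rik were sought among 14606 others over the 18 libraries, by r and with no p, since libraries of a group share their condition. Sp110, a nuclear body protein of the Sp100 family that lies on the same chromosome, came first with r = 0.985, followed by Fbxw24, an oocyte F-box gene, at 0.961, Cpsf4l, related to a polyadenylation factor subunit, at 0.957, Gna14, a G protein alpha subunit, at 0.952 and Gm14664 at 0.946. At Pd3 Sp110 was at 3.07, 3.56 and 5.57 FPKM in F1-Control and at 36.1, 37.9 and 16.1 FPKM in F1-HHcy, with these values among those that chose it. Among the libraries of Pd21 alone, r with A530040E14Rik was 0.884 for Sp110, 0.382 for Fbxw24 and -0.24 for Gna14, so the likeness of Fbxw24 and Gna14 rested on batch 1. After the mean of each group was subtracted, Fbxw15 came first at 0.937, then Oas1e and Fbxw24 at 0.921, Tcl1b1 at 0.92 and Oosp1 at 0.917, and Sp110 was at 0.887. The spread of A530040E14Rik left after this step was widest in F1-HHcy at Pd3, where the third library was low at 13.9 FPKM. These values therefore lean on that group, from a day whose values chose the members. Gml2 at -0.973, Gm31076 at -0.961 and Gm773 at -0.949 were the most opposite, with means of 1.21, 1.52 and 1.67 FPKM in F1-Control at Pd3 and below 0.5 in the other groups.

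A530040E14Rik has near-identical copies of much of its sequence. Its 6 GENCODE M21 transcripts shared between 66.7% and 85.2% of their bases with transcripts of other genes, in alignments of at least 100 bases at 95% identity or more. These included a stretch of 275 bases at 98.5% identity with Sp110, 166 bases at 100% identity with Sp140, A530032D15Rik and C130026I21Rik, and 372 bases at 100% identity with Gm10552, all on chromosome 1. The same search gave no such stretch in the transcripts of E330021D16Rik and Rptoros, and AU041480 has no GENCODE M21 transcript under that name. On the opposite strand, exons of C130026I21Rik covered 343 of the 2323 exon bases of A530040E14Rik. C130026I21Rik itself held 2.64 to 6.24 FPKM in F1-Control and 3.69 to 5.95 in F1-HHcy at Pd3, and A530032D15Rik, which overlaps A530040E14Rik in the gene table, stayed between 0.394 and 1.61 FPKM in all libraries. Sp140 was lower in F1-HHcy at Pd3, at 10.69 to 13.56 FPKM in F1-Control and 2.698 to 10.09 in F1-HHcy. The levels of A530040E14Rik, Sp110 and the other genes with shared stretches are therefore uncertain where fragments could be assigned to more than 1 of them.

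The pattern of E330021D16Rik was shared by 279 genes with r of 0.9 or more, or 1.91% of all genes compared. The first 5 were Fbxw28 at 0.992, Pramel26 at 0.992, Nlrp9b at 0.988, Nlrp4a at 0.988 and Nlrp2 at 0.987, spread over chromosomes 9, 4 and 7. Genes of other cell types were among the 279, with 5 of the 12 granulosa cell markers, namely Amh at 0.958, Inha at 0.918, Fshr and Hsd17b1 at 0.916 and Nr5a2 at 0.912, and the smooth muscle myosin gene Myh11 at 0.902. Within batch 1 the first 5 genes, Fbxw28 to Nlrp2, stood at 0.991 to 0.994, and within the Pd21 libraries at 0.44 to 0.942. After group means were subtracted the first 5 were 7420426K07Rik at 0.975, Pramel25 at 0.961, the glutamate receptor gene Grm2 at 0.952, the ribosome assembly gene Nop56 at 0.945 and Gm1965 at 0.944. The spread of E330021D16Rik left after this step was widest in F1-HHcy at Pd3, at 22.8, 11.6 and 4.71 FPKM, so these values lean on that group. Nop56 had r = 0.232 over all libraries, so it shared the spread within groups and not the differences between them. The most opposite genes were the transcription factor Dmrta2 at -0.966, the proteoglycan gene Cspg5 at -0.965 and the nucleoporin-like gene Nup62cl at -0.964. At Pd7 the means in F1-Control and F1-HHcy were 17.6 and 39.0 FPKM for Fbxw28, 24.8 and 81.1 for Pramel26, 11.9 and 35.8 for Nlrp9b, 13.0 and 35.2 for Nlrp4a and 8.74 and 19.1 for Nlrp2, with values of Pd7 among those that chose them. A530040E14Rik and E330021D16Rik had r = 0.904 with each other, 0.715 after group means were subtracted, and shared 49 of the 100 genes most like each. Spearman's rho of the pair was 0.474 and r within the Pd21 libraries 0.594, and the 3 F1-Control libraries of Pd3, whose low values chose both genes, are the lowest of all for each.

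**Figure D3:**
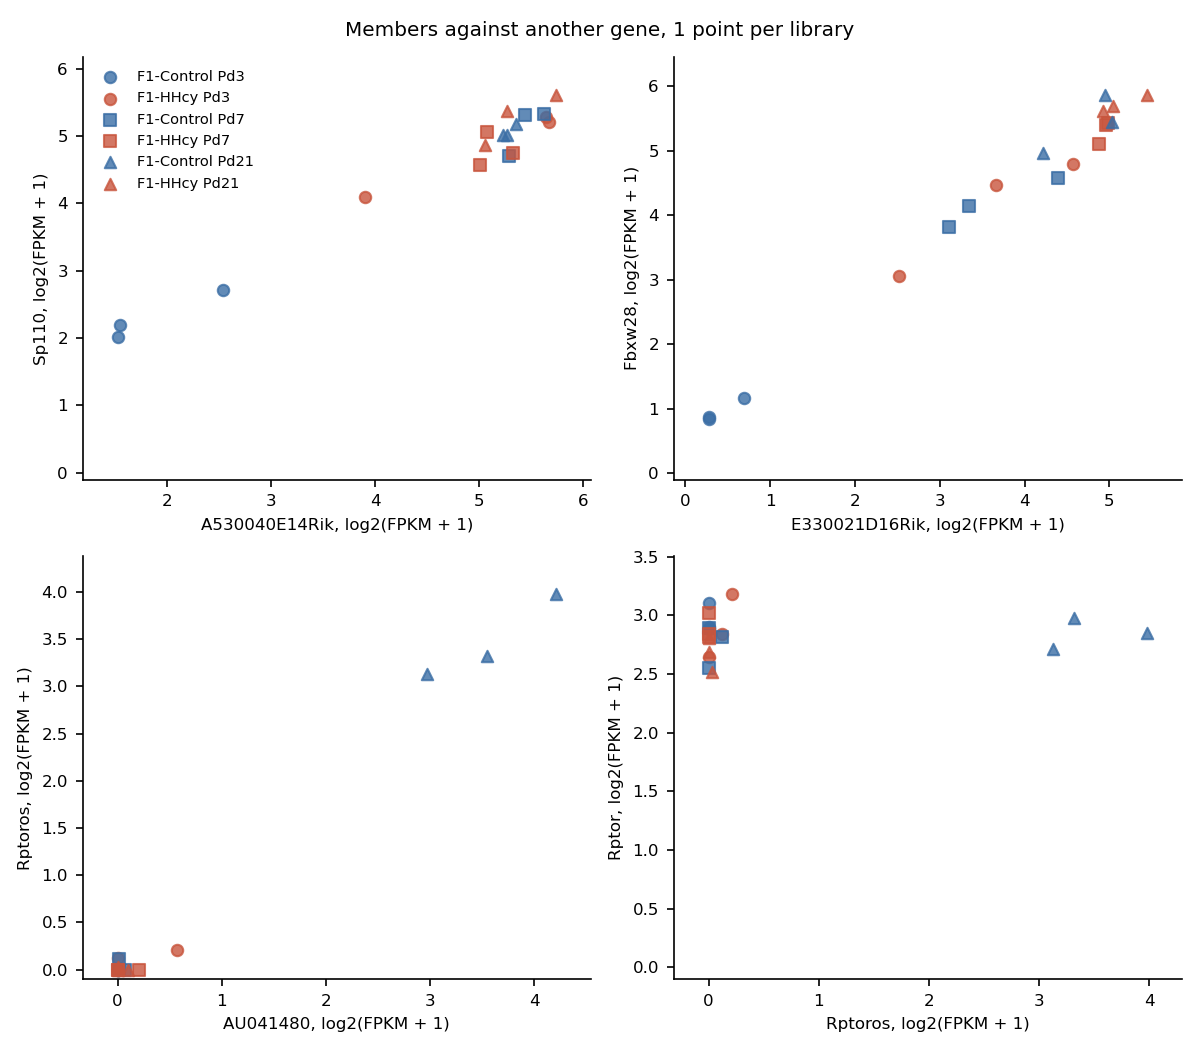
log2(FPKM + 1) of a member (horizontal) against another gene (vertical), 1 point per library, with colour for diet and shape for day. A530040E14Rik with Sp110 (r = 0.985) and E330021D16Rik with Fbxw28 (r = 0.992) line up, AU041480 and Rptoros are far from the origin in F1-Control at Pd21, with AU041480 at 0.483 FPKM in 1 F1-HHcy library of Pd3, and Rptor stays level along Rptoros (r = 0.053).

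AU041480, a non-coding transcript with no established function, was below 0.5 FPKM in every library outside F1-Control at Pd21. The F1-Control libraries at Pd21 held 17.5, 6.82 and 10.7 FPKM, from 1554, 591 and 950 fragments, and the F1-HHcy libraries at Pd21 held 6, 0 and 0 fragments. The groups did not overlap at Pd21, as was so for 10.5% of all genes that day. The means were 11.7 ± 5.41 and 0.0243 ± 0.0421 FPKM (SD, n = 3), a difference of -3.54 (SE 0.29) on the log2(FPKM + 1) scale. Summed fragments over the group's library totals were 507 times as high in F1-Control, with an exact 95% interval of 233 to 1383 for counting error. With 1 library left out the ratio ran from 332 to 610, and without the first F1-HHcy library, which leaves 0 fragments, it was at least 693, taking 3 fragments over the group. At Pd3 the libraries held 0, 0 and 0 fragments in F1-Control and 0, 0 and 38 in F1-HHcy, where 38 fragments are 0.483 FPKM, and at Pd7 they held 4, 1 and 1 in F1-Control and 12, 0 and 0 in F1-HHcy. A count of 0 allows up to 3 fragments, which is at most 0.0391 FPKM of AU041480 in a library.

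Rptoros followed the same course. The F1-Control libraries at Pd21 held 14.8, 7.75 and 8.98 FPKM, from 741, 380 and 453 fragments, and the F1-HHcy libraries held 0, 0 and 1 fragments. The first F1-Control library was highest for Rptoros and for AU041480, the second was lowest for both, and no F1-HHcy library came near them. The difference was -3.47 (SE 0.23) on the log2(FPKM + 1) scale, and summed fragments over the group's library totals were 1547 times as high in F1-Control, with an exact 95% interval of 277 to 61140 that is wide because it rests on 1 fragment. Without the third F1-HHcy library, which held that fragment, it was at least 337.5, taking 3 fragments over the group. Before Pd21, Rptoros had 0 fragments in each F1-Control library and 0, 4 and 7 in F1-HHcy at Pd3, and 0, 0 and 4 in F1-Control and 0 in each F1-HHcy library at Pd7. At the test day neither AU041480 nor Rptoros reached 1 FPKM in 3 libraries, so neither was tested at Pd7. The depth of these libraries would not show a difference under a few fragments at Pd3 and Pd7.

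AU041480 and Rptoros moved together and with genes of motile cilia. They had r = 0.995 with each other over the 18 libraries and 0.887 after group means were subtracted, and they shared 89 of the 100 genes most like each. The highest r of AU041480 were Zfp474 at 0.998, Ppp1r32, 2610028H24Rik and Fam216b at 0.997 and Dnali1, a light chain of axonemal dynein, at 0.996. For Rptoros they were Zfp474, 2610028H24Rik and Dnah3, an axonemal dynein heavy chain, at 0.998, Sntn, a protein of ciliary tips, at 0.997 and Fam166c at 0.996. The F1-Control mean at Pd21 was 6.32 FPKM for Zfp474, 20.9 for Dnali1 and 23.0 for Sntn, and the F1-HHcy mean was 0.0436, 0.313 and 0.0931. These values of r rest on the 3 F1-Control libraries of Pd21 against the 15 others, and within batch 1, where both genes were below 0.5 FPKM, r with Zfp474 was 0.757 for AU041480 and 0.847 for Rptoros. For the other genes just named with AU041480 it ran from 0.714 to 0.846 within batch 1. With Rptoros it was 0.842 for 2610028H24Rik, 0.596 for Fam166c, 0.475 for Dnah3 and -0.139 for Sntn, so this likeness did not hold for all of them. After group means were subtracted, Fam216b led for AU041480 at 0.948, with Ppp1r32 and Kcnrg at 0.945, Cibar2 at 0.941 and Cdhr3 at 0.938, and Fam166c led for Rptoros at 0.972, with Gm31160 at 0.965, Stmnd1 at 0.959, Gm40612 at 0.958 and Cibar2 at 0.957. The most opposite genes, Zmym1 at -0.795 and -0.787, Gorab at -0.778 and -0.775, Phtf2 at -0.788 for AU041480 and the mRNA cap methyltransferase gene Rnmt at -0.778 for Rptoros, changed little in level, Zmym1 from 7.20 to 8.54 FPKM between F1-Control and F1-HHcy at Pd21.

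Multiciliated cell markers fell with the 2 transcripts. Of the 13 markers measured, 11 were tested at Pd21 and 10 were called lower, beside 5.06% of all genes called lower and 5.14% called in either direction. The median difference was -2.68 against -0.01 over all genes. A marker needed 1 FPKM in 3 libraries to be tested, which Foxj1 and Cfap44 reached in F1-Control alone. For such markers a fall was the only direction open, so the count is a description. Foxj1 fell from 56.4 ± 39.8 to 0.354 ± 0.0978 FPKM, and Cfap44, an axoneme-associated protein, fell from 3.06 ± 0.465 to 0.0773 ± 0.0655, both given with no test for the same reason. Ccno, a cyclin-like protein of centriole amplification, was the marker not called, with 81.3 ± 14.9 and 89.8 ± 13.1 FPKM. Summed over the list, the markers were at 143.8 to 349.7 FPKM in F1-Control and 79.9 to 107.9 in F1-HHcy at Pd21, and at 32.0 to 66.8 at Pd3 and Pd7, and none was at 0 in every library of a day. Ccno made up most of the sum in F1-HHcy at Pd21, and without it the other 12 markers summed to 73.9 to 251.5 FPKM in F1-Control and 5.11 to 9.07 in F1-HHcy, and to 5.83 to 12.7 at Pd3 and Pd7. The median r of the 11 markers was 0.981 with AU041480 and 0.983 with Rptoros. With each transcript 10 of the 11 were at 0.9 or more, beside 1.61% of all genes compared for AU041480 and 1.57% for Rptoros. These values of r also rest on the F1-Control libraries of Pd21. In the F1-Control libraries of Pd21, AU041480 was 5.0%, 4.74% and 5.0% of the marker sum and Rptoros was 4.22%, 5.39% and 4.22%. Without Ccno, an alternative chosen after seeing the data, AU041480 was 6.96%, 9.23% and 7.77% of the sum and Rptoros was 5.87%, 10.5% and 6.56%, and the second library, lowest for both in FPKM, was then the highest. Surface and oviduct epithelium markers also fell at Pd21, with 11 of 12 called lower and 3 of the 12 at an adjusted p under 0.05. Ovgp1, the oviduct secretory glycoprotein, was at 206 FPKM in F1-Control and 1.19 in F1-HHcy (limma, adjusted p = 0.00541). Of 7 adipocyte markers 5 were called lower, none at an adjusted p under 0.05, Retn among them at 13.7 and 1.11 FPKM (limma, adjusted p = 0.124). The part that cells of these types had in the values of AU041480 and Rptoros was not tested.

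**Figure D4:**
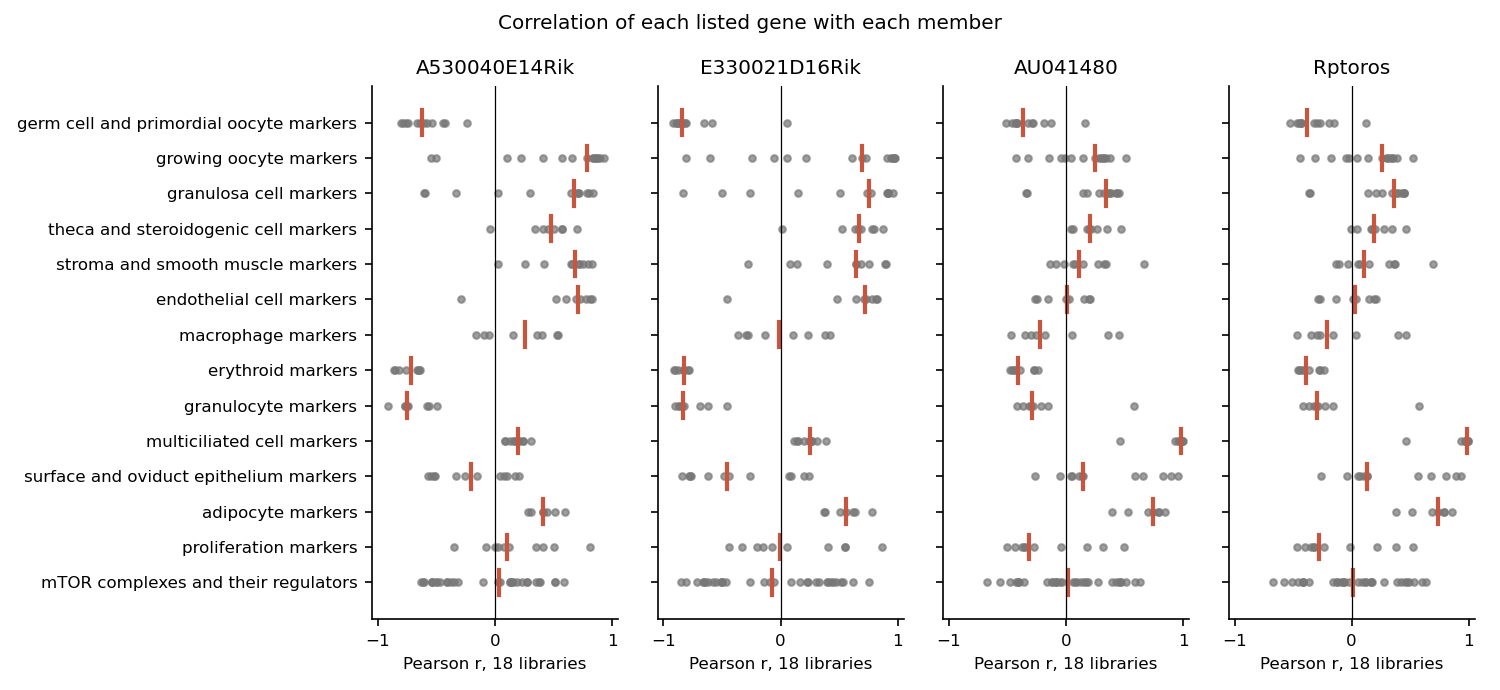
Pearson r over 18 libraries of each listed gene (grey points) with each member, by list, with the median in red. Multiciliated cell markers sit at a median of 0.981 and 0.983 with AU041480 and Rptoros, and germ cell and primordial oocyte markers at -0.626 and -0.838 with A530040E14Rik and E330021D16Rik. With the latter pair erythroid markers sit at -0.713 and -0.827 and granulocyte markers at -0.748 and -0.832.

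Rptoros lies inside Rptor on the opposite strand, and 84 of its 1174 exon bases are covered by exons of Rptor. Rptor did not share its pattern. Its F1-Control means were 6.82 ± 0.690 FPKM on Pd3, 5.77 ± 0.818 on Pd7 and 6.21 ± 0.656 on Pd21 (SD, n = 3). The F1-HHcy means on these days were 6.48 ± 1.45, 6.44 ± 0.590 and 5.40 ± 0.638 FPKM. The difference at Pd21 was -0.17 (SE 0.16) and did not pass the test (limma, adjusted p = 0.9996), and r between Rptor and Rptoros was 0.053. This was the 31st of 52 such pairs of a gene and its opposite strand transcript, ordered from the highest r, with a median r of 0.155 and quartiles of -0.15 and 0.293. Of 32 genes of the mTOR complexes and their regulators, the smallest unadjusted p at Pd21 in limma was 0.209, for Rragd, a Rag GTPase. At Pd7, Eif4ebp2, a repressor of translation, was called higher, at 14.2 ± 5.22 and 21.2 ± 0.456 FPKM in F1-Control and F1-HHcy (limma, adjusted p = 0.122), and 2 of the 32 were called lower, beside 9.06% higher and 7.35% lower of all genes. They were Rragd, at 8.13 ± 1.69 and 4.58 ± 0.486 FPKM (limma, adjusted p = 0.0303), and Lamtor1, which anchors the Ragulator complex to lysosomes, at 74.8 ± 18.5 and 44.9 ± 4.67 FPKM (limma, adjusted p = 0.0385).

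Other neighbours were mostly silent. Fndc1, a fibronectin type III domain gene 4882 bases from AU041480, was at 4.79 ± 4.28 FPKM in F1-Control and 0.672 ± 0.258 in F1-HHcy at Pd21, a difference of -1.56 (SE 0.43) that was called without passing the adjusted test (limma, adjusted p = 0.184). Its highest F1-Control library was the third, at 9.72 FPKM, while AU041480 was highest in the first. At Pd3 Fndc1 was at 4.62 ± 1.18 and 6.22 ± 4.52 FPKM, where AU041480 was below 0.5 FPKM. Gm36844, a non-coding gene 29014 bases from E330021D16Rik, was at 0.0593, 0.150 and 1.59 FPKM in F1-HHcy at Pd3, high in the third library alone, and had means of at most 0.180 in the other groups. Slc16a14, Gm38510, Gm26653, Gm1604a, Gm11762 and Gm39485, the nearest genes on the remaining sides, had group means between 0 and 0.168 FPKM.

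As classes, poorly known transcripts were not all of 1 direction. Of the symbols ending in Rik that were tested, with the members left out, 3.66% were called higher and 8.62% lower at Pd3, beside 5.0% and 4.74% of all genes, and 9.74% of all genes were called in either direction. The shares on Pd7 were 13.8% and 7.40%, beside 9.06% and 7.35% of all genes. On Pd21 they were 0.26% and 7.53%, where all genes gave 0.0824% and 5.06%. Of 42 opposite strand symbols tested at Pd21, Rptoros left out, 4 were called lower, or 9.52%, namely Ccpg1os, Frmpd1os, Med9os and Uckl1os, named here after their values were seen. Ordered by the size of the rise at Pd3, A530040E14Rik and E330021D16Rik were in places 5 and 7 of 13277 genes, and by the size of the fall at Pd21 AU041480 and Rptoros were in places 24 and 27 of 13350. These are the values that chose the members, so the places are a description. In a narrower ranking, which kept genes by p and by groups that did not overlap, the fifth and the sixth places at Pd3 were Fbxw28 at 3.15 and Cnmd, a cartilage-associated secreted protein, at 3.08 on the log2(FPKM + 1) scale, and those of the fall at Pd21 were Foxj1 at -5.14 and Gm19935 at -4.88.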

How the data were processed

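Poly-A RNA of whole ovaries was made into stranded libraries per the labels. The submitters' processing notes name FastQC 0.11.9, Trimmomatic 0.39, STAR 2.7.9a, featureCounts 2.0.1 of Subread, DESeq2 1.36.0 and the builds GRCm38 and mm10; the strand setting and handling of multiply mapped reads are not given in the sources used here. The deposited values, 1 per gene symbol and library, were read as FPKM because 1 length per gene and 1 total per library turned them into whole fragments within 0.01 for at least 99.9979% of the fragments of every library.

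The members and gene lists were chosen with earlier results of these data known. Each day was fitted alone with limma 3.58.1 (R 4.3.3) on log2(FPKM + 1) with a variance trend, over genes that reached 1 FPKM in 3 or more of the day's 6 libraries, with Benjamini-Hochberg adjustment. A difference on this scale understates the change of low genes. Genes that reached 1 FPKM in 1 diet group alone entered the test only through the group where they were high. The script was tested on simulated data. Similarity was Pearson r over 18 libraries among genes that reached 1 FPKM in 3 or more of them. Genes named are the members, their neighbours, for each member the 5 highest and 3 lowest r and the 5 highest after subtracting group means, the 3 highest levels or smallest p of a list, and the fifth and the sixth places of a day's ranking. Sp140, C130026I21Rik, Gm10552, D10Wsu102e and Rpia were added after their values were seen for their shared sequence. So were Taf4b, Uchl1 and Eif4ebp2 as sole members of a count, Insl3 for the filter, and the permutation test at Pd7. Shared stretches were found with blastn 2.17.0 in GENCODE M21 transcripts. No 2 libraries agreed within sampling noise. Alternatives covered the pseudocount (0.1), the filter, 1 model of 18 libraries, a replicate block, size factors, limma-voom on recovered fragments, a robust variance prior and each library left out.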

Additional observations from a re-analysis of the deposited data

How the results depend on the processing

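At Pd7 E330021D16Rik stayed higher and called under all alternatives with a test, at 1.065 to 1.71 with 1 library left out, and A530040E14Rik stayed uncalled, at -0.41 to -0.23; their replicate block values were 1.32 and -0.31. Relative to summed germ cell and primordial oocyte markers, an alternative chosen after seeing the data, the Pd7 difference was 2.99 for E330021D16Rik and 1.27, of opposite sign, for A530040E14Rik, and the Pd3 difference of E330021D16Rik was 6.09. A pseudocount of 0.1 gave 4.72 for E330021D16Rik at Pd3 and -6.51 for AU041480 and -6.59 for Rptoros at Pd21, and limma-voom on recovered fragments gave 5.14, -9.64 and -9.42, since less was added to values near 0. With 1 library left out, A530040E14Rik ran from 2.90 to 3.79 at Pd3 and from -0.12 to 0.22 at Pd21, E330021D16Rik from 3.09 to 3.31 and from 0.15 to 0.55, AU041480 from -3.57 to -3.52 and Rptoros from -3.48 to -3.46 at Pd21; where only 2 libraries of the expressing group remained, the filter removed the gene and no value was had. AU041480 and Rptoros had no test at Pd3 and Pd7 with the filter, and without it their Pd7 differences were 0.03 and -0.04 (limma, adjusted p = 0.758 and 0.549). Genes called were 1293 at Pd3, 2183 at Pd7 and 686 at Pd21; with adjusted p they were 377 at Pd3, 1479 at Pd7 and 298 at Pd21, with the block 1255, 2229 and 722, and with 1 library left out 912 to 1948, 1388 to 2784 and 363 to 951, the count at Pd3 rising to 1948 without the third F1-HHcy library, at Pd7 falling to 1388 without the second F1-Control library, and at Pd21 falling to 445 and 363 without the first and the third F1-Control library. Same-numbered libraries did not deviate together in every pair, so the block is given only here. Of the 100 genes most like each member, 14 to 46 were also among the 100 highest by Spearman's rho, 35 to 68 after subtracting group means, 12 to 68 within batch 1, 2 to 71 within batch 2 and 76 to 83 with a pseudocount of 0.1.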
